A study of Homo sapiens with 60 samples.

Results

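The 37 genes of the mitochondrial genome were measured in A549, a human cell line from a lung carcinoma, after treatment with herbal extracts. The members were all genes on the mitochondrial chromosome in the deposited table, 37 of 60675 gene IDs, namely 13 mRNAs, 2 rRNAs and 22 tRNAs. Of these, 12 mRNAs are read from the heavy-strand promoters, and MT-ND6 is the only mRNA read from the light-strand promoter. They were taken by their chromosome alone, and this gene set was chosen with earlier results of these data known. There were 60 libraries of total RNA from cells exposed for 24 h.

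The vehicle group was DMSO alone, with 3 libraries. Sayeok-tang and Bojungikgi-tang, a pair of multi-herb formulas, were water extracts. Zingiberis Rhizoma Recens (fresh ginger), Zingiberis Rhizoma (dried ginger), Pinelliae Tuber, Scutellariae Radix, Coptidis Rhizoma and Zizyphi Fructus were ethanol extracts. Each extract had a high, a medium and a low dose. These were 500, 100 and 20 µg/mL except for Scutellariae Radix (190, 38 and 7.6 µg/mL) and Coptidis Rhizoma (110, 22 and 4.4 µg/mL), whose high dose was the IC20, as the series text sets it for extracts with an IC20 under 500 µg/mL. A group had 3 libraries, except Bojungikgi-tang with 2 and Coptidis Rhizoma and Zizyphi Fructus with 1 at each dose. The labels give 0.1% DMSO for the vehicle and the series text gives 2%, so the vehicle concentration is uncertain. In the sample descriptions each extract shares its set number with a partner extract, while the vehicle has a set number of its own. The formulas form a pair, as do the gingers. Scutellariae Radix is in a set with Pinelliae Tuber, and Zizyphi Fructus in a set with Coptidis Rhizoma. A set and an extract therefore cannot be told apart in a comparison with vehicle, whereas partner extracts are compared within a set. Nothing in the labels says that libraries of a group came from separate cultures, and p-values therefore measure the spread between these libraries. Below, the extracts are called Sayeok, Bojungikgi, fresh ginger, dried ginger, Pinellia, Scutellaria, Coptis and Zizyphus.

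Mitochondrial DNA is a small circle that encodes subunits of the respiratory chain and the RNA parts of the mitochondrial ribosome. Both strands are transcribed by the nuclear-encoded polymerase POLRMT, with TFAM and TFB2M as its initiation factors, into long RNAs that run through many genes. The RNAs are cut apart mainly at the tRNAs that lie between the other genes. The level of each mature RNA then depends on its own stability, for which LRPPRC and SLIRP are known binding proteins. A difference among genes of the same strand is therefore not by itself a difference in transcription.

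Several members share bases with a neighbour, and these are shown because reads there cannot be given to 1 gene with certainty. MT-ATP8 and MT-ATP6, subunits of ATP synthase, share 46 bases and are read from 1 bicistronic mRNA, and MT-ND4L and MT-ND4, subunits of complex I, share 7. MT-ND5 and MT-ND6 end next to each other on opposite strands. The stretches are from GENCODE release 29 transcripts on GRCh38, with the shared bases in capitals.
MT-ATP8 and MT-ATP6, chrM:8507-8592, plus strand: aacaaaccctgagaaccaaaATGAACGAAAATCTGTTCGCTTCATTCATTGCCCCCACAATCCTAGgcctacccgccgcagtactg
MT-ND4L and MT-ND4, chrM:10740-10786, plus strand: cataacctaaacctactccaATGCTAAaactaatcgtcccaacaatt
Last bases of MT-ND5, chrM:14119-14148, plus strand: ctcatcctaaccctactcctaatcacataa
Last bases of MT-ND6, chrM:14149-14178, minus strand: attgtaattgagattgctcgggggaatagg

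The 60 libraries held 17.51 to 38.54 M counts (M, counts in units of 1000000). A549 epithelial markers were present in all of them, with a summed level of 16300 to 20600 CPM (counts per 1000000 counts of the library, scaled by the trimmed mean of M values). The 4 endothelial markers summed to at most 0.256 CPM, the 6 fibroblast markers to 19.2 to 38.7 CPM and the 6 immune markers to 6.06 to 18 CPM, with CD3E at 0 counts throughout. RNAs that lack a poly(A) tail varied most among the vehicle libraries, where 16 listed genes summed to 46.5 to 141 CPM, against 31.9 to 64.8 CPM in the 51 extract libraries of replicated groups. The part of that difference in the comparisons with vehicle was not tested. In these bulk samples, fewer cells of a type and less RNA per cell cannot be told apart.

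In the vehicle libraries the 37 genes took 8.58%, 9.18% and 9.38% of all counts. Per base of gene length, the highest were MT-RNR2, the large ribosomal RNA, at 143% of MT-CO1 ± 1.87 (SD, n = 3) and MT-CO3, a subunit of cytochrome c oxidase, at 127% ± 2.37. MT-CO2 (80.3% ± 4.4), MT-ATP6 (71.0% ± 4.96) and MT-ND4 (61% ± 7.34) followed MT-CO1. MT-ND1 (45.6% ± 6.58), MT-ND3 (40.8% ± 5.31), MT-ND2 (38.9% ± 3.1), MT-ND4L (36.5% ± 2.32) and MT-CYB (35.9% ± 4.37) came next, and each differed from its neighbour in this order by less than the larger of their SDs. MT-ATP8 (16.7% ± 2.19) and MT-RNR1, the small ribosomal RNA (16.6% ± 0.674), were as close, and MT-ND5 was at 15.3% ± 0.66. Light-strand MT-ND6 had the fewest counts per base of the mRNAs, at 6.75% ± 0.494. These values are counts divided by the full gene length, without allowance for bases shared with a neighbour. How far the length or the poly(A) tail of each mRNA or rRNA affects them was not tested. Their order is therefore not by itself an order of RNA abundance.

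The 22 tRNAs were almost absent, as small structured RNAs without a long poly(A) tail usually are in mRNA libraries. They had 86 counts in all over 60 libraries, at most 3 for a gene in a library. Of them 10 had no count, 12 had a count in at least 1 library, and 17 libraries had none. No tRNA passed the filter on low counts, and all 15 mRNAs and rRNAs did. The results below are for those 15.

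The 3 Coptis libraries stood apart from the other 57. Of 15 members, 14 were outside the range of the 57 others at the high dose (2 above, 12 below), 14 at the medium dose (5 above, 9 below) and 13 at the low dose (5 above, 8 below). Of all genes at 5 CPM or more, 28.4%, 11.0% and 3.92% were outside that range at these doses. Coptis is a rhizome known for the alkaloid berberine. With 1 library at each dose there is no test, and the values describe these libraries. The mitochondrial share was 9.92% at the high dose (95% Wilson interval 9.91 to 9.935), 15.92% at the medium dose (15.91 to 15.94) and 14.98% at the low dose (14.97 to 15.0). The interval covers counting error only. In the 57 other libraries the share ran from 8.29% to 11.68%, so the medium and low doses were above that range and the high dose was inside it.

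**Figure D1:**
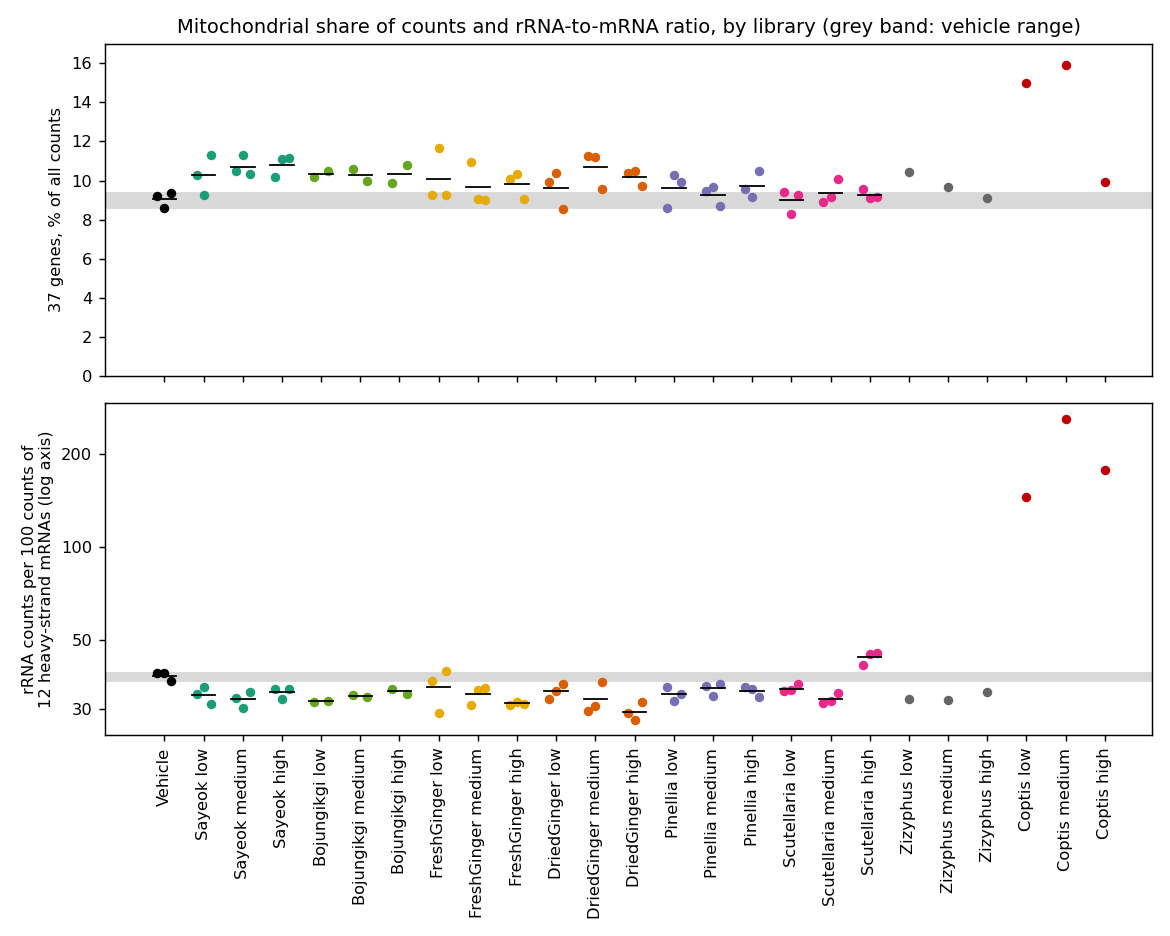
Share of all counts in the 37 mitochondrial genes (top, percent) and rRNA counts per 100 counts of the 12 heavy-strand mRNAs (bottom, log axis), by group; each point is a library, lines are group means and the grey band is the vehicle range. The 3 Coptis libraries lie at 145 to 261 in the lower panel, while the other 57 lie between 27.7 and 45.5.

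The rRNAs took 6.32%, 11.45% and 8.79% of all counts at the high, medium and low dose, against 2.11% to 2.87% in the 57 others. MT-RNR1 was at 21580 CPM at the high dose, 36470 at the medium and 24780 at the low dose, while the vehicle libraries had 1724, 1557 and 1740 CPM and the 57 others 1076 to 2500. These levels were 12.9, 21.8 and 14.8 times the vehicle mean. MT-RNR2 was at 40570, 86670 and 68320 CPM in the same order, 1.72, 3.68 and 2.9 times the vehicle mean of 23570. The 2 rRNAs moved unequally: there were 53.2, 42.1 and 36.3 counts of MT-RNR1 per 100 of MT-RNR2 in Coptis, and 4.91 to 9.38 in the 57 others. Relative to the summed heavy-strand mRNAs, rRNA stood at 177, 261 and 145 counts per 100, against 36.8 to 39.2 in vehicle.

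The mRNAs between MT-CO1 and MT-ND4 were low in Coptis. MT-CO1, the catalytic subunit of cytochrome c oxidase, was at 7551, 7876 and 8879 CPM at the high, medium and low dose, below the 14010 to 19270 of the 57 others. MT-CO3 was at 4942, 4212 and 4431 CPM against 8588 to 14180. The 8 mRNAs MT-CO1, MT-CO2, MT-ATP8, MT-ATP6, MT-CO3, MT-ND3, MT-ND4L and MT-ND4 were below the lowest of the 57 others at all 3 doses, with log2 ratios to the vehicle mean from -1.32 for MT-CO3 at the medium dose to -0.57 for MT-ATP8 at the high dose. The ratio adds 0.5 CPM to both values.

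The 3 mRNAs at the far end of the genome did not follow them. MT-ND5, a proton-pumping subunit of complex I, was at 13330 CPM at the low dose, 5688 at the medium dose and 1826 at the high dose, against 2682 to 4109 in the 57 others. MT-CYB, the cytochrome b subunit of complex III, was at 11870, 10090 and 2718 CPM in the order low, medium, high, against 3856 to 6201. MT-ND6 was at 1380, 816.5 and 336.1 CPM, against 307.4 to 717.8. Thus these genes were above all other libraries at the low and medium dose, and MT-ND5 and MT-CYB were below them at the high dose. There were 224 counts of MT-ND5 per 100 of MT-ND4 at the low dose, 129 at the medium dose and 37.0 at the high dose, against 25.7 to 38.3 in the 57 others.

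**Figure D2:**
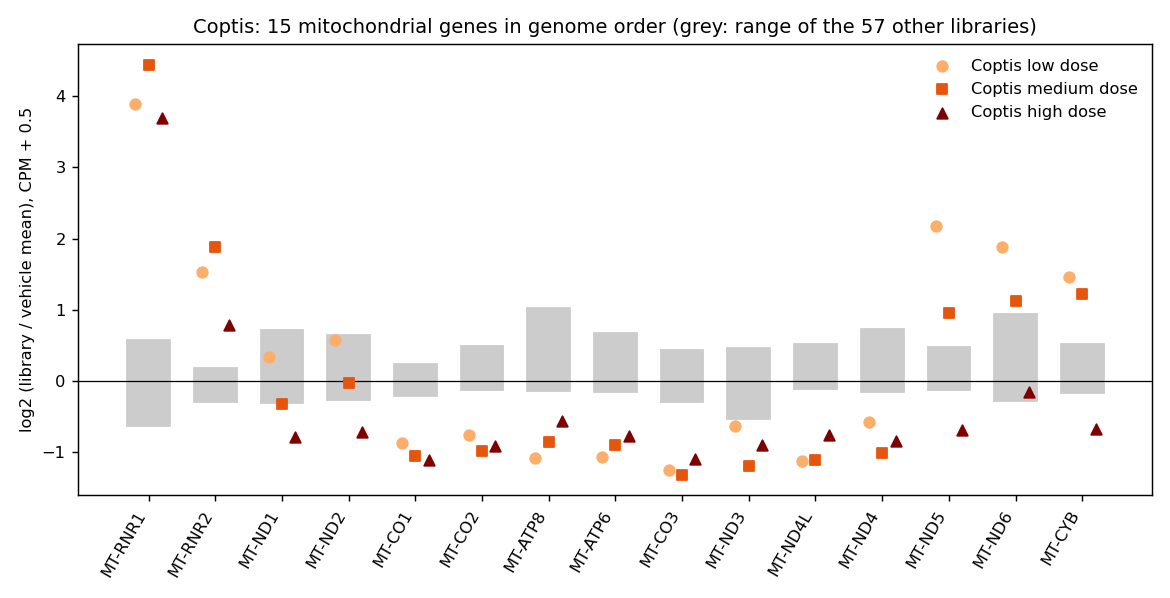
Log2 ratio of each Coptis library to the vehicle mean (CPM plus 0.5) for the 15 mitochondrial genes above the filter, in their order along the genome; markers are the 3 doses and grey boxes the range of the 57 other libraries. At the low dose MT-ND5, MT-ND6 and MT-CYB lie at 2.18, 1.88 and 1.46, while MT-CO1 to MT-ND4 lie between -1.25 and -0.58.

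MT-ND1 and MT-ND2, complex I subunits that follow the rRNAs, were between these patterns. MT-ND1 was at 2683 CPM at the high dose, 3696 at the medium and 5815 at the low dose, and only the low dose was within the 3708 to 7588 of the others. MT-ND2 was at 2594, 4207 and 6391 CPM, with the medium and low doses within 3568 to 6693.

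By a rule of at least 2-fold, outside the vehicle range and a mean of at least 5 CPM, 1 member was higher and 2 lower at the high Coptis dose, where 0.931% of 10959 genes were higher and 0.666% lower. At the medium dose 4 were higher and 5 lower, against 0.384% and 0.219% of 10946 genes. At the low dose 5 were higher and 4 lower, against 0.183% and 0.0549% of 10931 genes. At the low dose 20 genes in all were higher and 6 lower, so the members made up 5 of the 20 and 4 of the 6. The median log2 ratio of all these genes was -0.02, 0.00 and -0.01 at the high, medium and low dose, and that of the 15 members -0.76, -0.86 and -0.58.

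In the same libraries the nuclear transcription, replication and RNA processing genes for mitochondrial DNA and RNA had log2 ratios to vehicle between -0.38 and 0.39. None of the 9 mitochondrial transcription genes, 11 replication genes, 20 RNA processing and decay genes, 7 biogenesis regulators at 5 CPM or more or 47 nuclear respiratory chain genes passed the 2-fold rule at any Coptis dose. POLRMT was at 48.8, 51.3 and 54.3 CPM at the high, medium and low dose, against 61.8 ± 2.02 in vehicle (SD, n = 3). TFAM, which also packages mitochondrial DNA, was at 109, 111 and 104 CPM against 115 ± 4.25. Of the mitochondrial RNase P, which cuts at tRNAs, TRMT10C was at 34.6, 36.4 and 35.3 CPM against 45.1 ± 0.79, PRORP at 37.7, 46.9 and 45.0 against 49.1 ± 1.86, and HSD17B10 at 83.2, 83.2 and 73.2 against 77.3 ± 4.77. LRPPRC was at 516, 530 and 497 CPM against 468 ± 8.43, and PPRC1 at 119, 129 and 132 against 117 ± 6.75. PPARGC1A, the coactivator PGC-1alpha, was barely detected, at 0.14 ± 0.0215 CPM in vehicle.

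Zizyphus carries the same set number as Coptis, and none of its 15 members was outside the range of the 54 libraries of vehicle and the 6 replicated extracts at any of 3 doses. Of all genes at 5 CPM or more, 2.15%, 1.73% and 2.89% were outside it at the high, medium and low dose. Its mitochondrial share was 9.12%, 9.66% and 10.44% at the high, medium and low dose, and its log2 ratios to vehicle ran from -0.14 to 0.55. The summed level of RNAs without a poly(A) tail in Coptis was 55.9, 48.3 and 47.7 CPM at the high, medium and low dose. This was within the vehicle range of 46.5 to 141 and within the 31.9 to 64.8 of the 51 extract libraries of replicated groups. The 5 of these genes at 5 CPM or more had a median log2 ratio to vehicle of -0.52, -0.59 and -0.52 in Coptis. The part of these RNAs in the Coptis values was not tested. The Coptis depth of 21.18 to 22.22 M counts was within the range of the other libraries.

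MT-ND6 was also high in Coptis relative to the heavy-strand mRNAs. Per 1000 counts of the 12 heavy-strand mRNAs, MT-ND6 had 9.59, 17.3 and 21.5 counts at the high, medium and low dose of Coptis, against 4.67 to 8.49 in the 57 others. The library kit keeps the strand, but whether the counting used it is not given in the sources used here. Reads of MT-ND6 therefore cannot be told from reads of the opposite strand at that place.

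**Figure D3:**
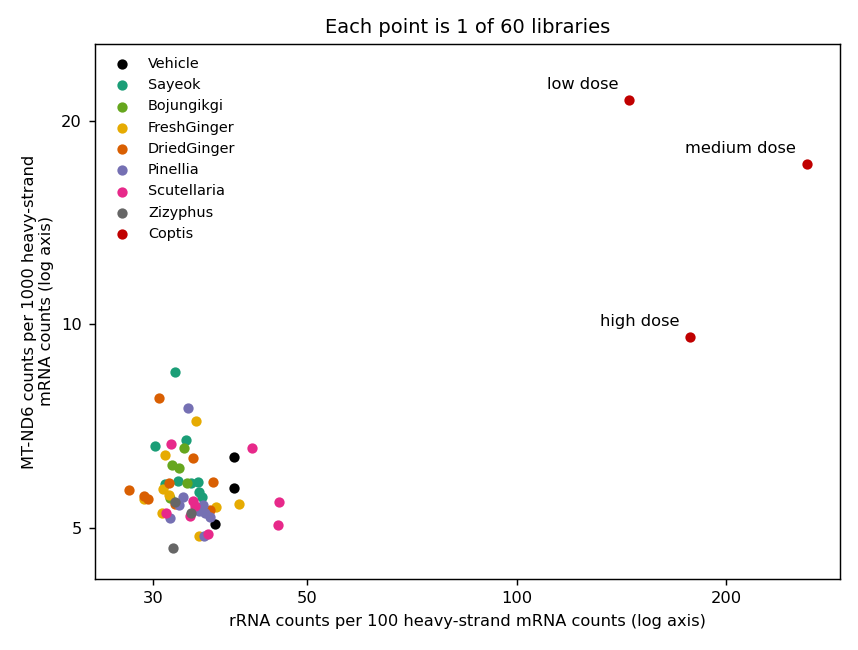
MT-ND6 counts per 1000 heavy-strand mRNA counts (vertical, log axis) against rRNA counts per 100 heavy-strand mRNA counts (horizontal, log axis); each point is 1 of 60 libraries, coloured by extract. The Coptis points at 9.59, 17.3 and 21.5 on the vertical axis lie above the other 57, which reach 8.49.

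Among the replicated extracts, the comparisons were fitted with edgeR's quasi-likelihood test, with Benjamini-Hochberg adjustment over all genes tested and a call at an adjusted p under 0.05. All comparisons with vehicle, in every extract family, share the same vehicle libraries and are not independent of each other. Shares of all genes called are edgeR results, and none is given for DESeq2 or the other alternatives. The 20 comparisons made 24 member calls, and 4 of these held under every alternative tried. These were MT-RNR1 in high-dose fresh ginger against vehicle, MT-RNR1 in high-dose dried ginger against vehicle and against its low dose, and MT-ATP8 in low-dose Sayeok against vehicle.

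MT-RNR1 was low in cells given a high dose of either ginger. The vehicle libraries had 1724, 1557 and 1740 CPM, high-dose dried ginger had 1076, 1154 and 1109 CPM, and high-dose fresh ginger had 1239, 1363 and 1300 CPM. The 3 groups did not overlap, and the share of all genes without overlap was not counted for them. MT-RNR1 fell by 0.59 on the log2 scale in dried ginger against vehicle (SE 0.0597, adjusted p = 2.05e-08, edgeR) and by 0.36 in fresh ginger (SE 0.0595, adjusted p = 0.000187). It was the only member called lower in each by edgeR, where 19.0% and 7.16% of 16629 genes were lower. DESeq2 called 2 members lower in dried ginger and 1 in fresh ginger.

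**Figure D4:**
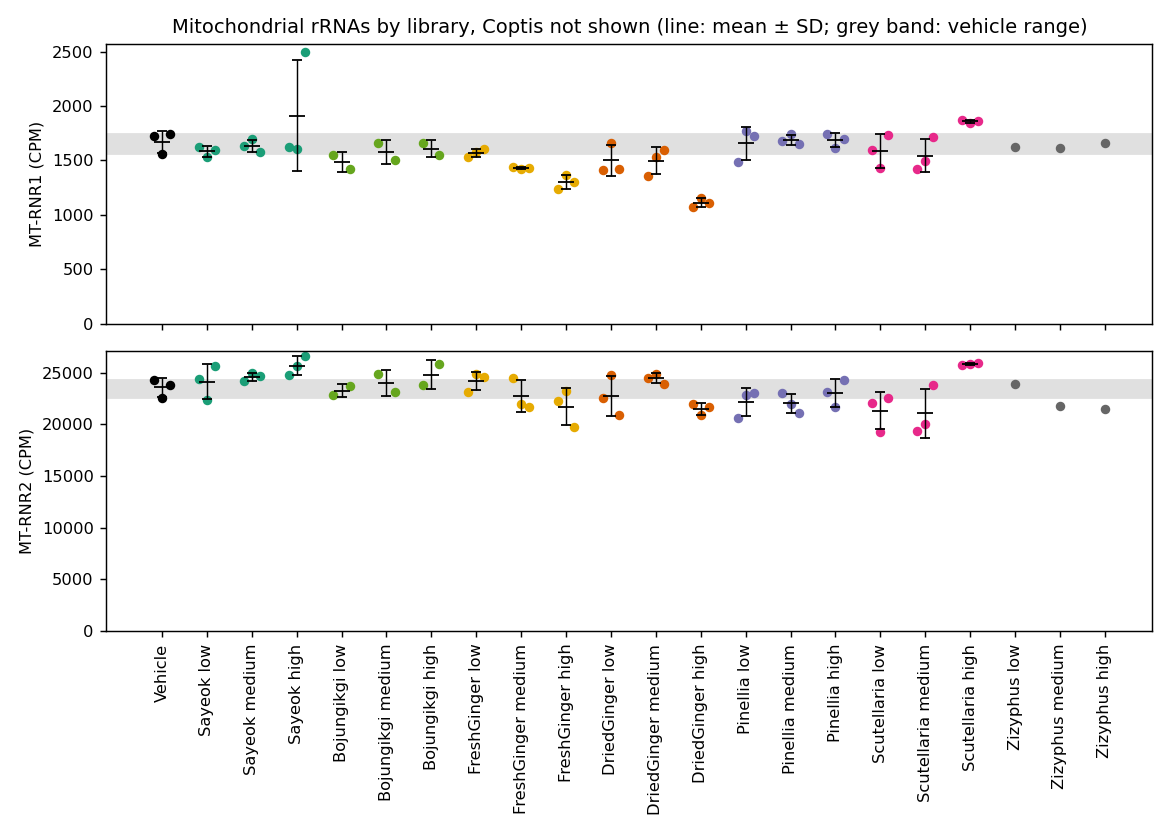
MT-RNR1 and MT-RNR2 in CPM by group, without Coptis; points are libraries, bars the mean ± SD of replicated groups and the grey band the vehicle range. For MT-RNR1 the high doses of dried ginger (1076 to 1154) and fresh ginger (1239 to 1363) lie below the vehicle libraries (1557 to 1740).

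The low doses of the gingers overlapped the vehicle in MT-RNR1, with 1416, 1663 and 1421 CPM in dried and 1529, 1577 and 1603 CPM in fresh ginger. The medium doses had 1359, 1533 and 1599 CPM and 1444, 1423 and 1431 CPM. Against the low dose, MT-RNR1 fell by 0.43 in dried ginger (SE 0.0596, adjusted p = 3.35e-06, edgeR) and by 0.27 in fresh ginger (SE 0.0595, adjusted p = 0.00712). It was again the only member called, among 16.8% of genes higher and 16.0% lower in dried ginger and 1.95% lower in fresh ginger. Without the first high-dose library the fresh ginger call was lost (adjusted p = 0.0625), and in 1 fit of all 60 libraries (adjusted p = 0.122).

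At the high dose, dried ginger was below fresh ginger in MT-RNR1 by a log2 difference of -0.23 (SE 0.0596, adjusted p = 0.00696, edgeR), the only member called, where 11.3% of genes were lower. That call was lost without the second high-dose fresh ginger library (adjusted p = 0.0502) and in the fit of all 60 libraries (adjusted p = 0.103). The difference between the gingers in their high minus low dose change called 0 members by edgeR and 0 by DESeq2, with 0 at an unadjusted p under 0.05, where 11.2% of genes were called. For MT-RNR1 that difference was -0.16 (SE 0.0841, adjusted p = 0.262).

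The other rRNA moved less in the gingers. MT-RNR2 had 21920, 20880 and 21640 CPM in high-dose dried ginger against 24300, 22590 and 23820 in vehicle. Its log2 difference of -0.14 was not called (SE 0.0598, adjusted p = 0.0766, edgeR). There were 4.91, 5.53 and 5.12 counts of MT-RNR1 per 100 of MT-RNR2 in high-dose dried ginger and 5.57, 5.88 and 6.59 in fresh ginger, all below the 6.89 to 7.3 of vehicle. The mRNAs MT-CO1 and MT-ND4L were called higher in high-dose dried ginger, where 20.2% of genes were. MT-CO1 had 19130, 18730 and 17510 CPM against 16950, 15730 and 16230 in vehicle, a log2 change of 0.18 (adjusted p = 0.0441, edgeR). MT-ND4L had 1438, 1481 and 1609 CPM against 1157, 1185 and 1089, a log2 change of 0.40 (adjusted p = 0.0374). The MT-CO1 call was lost without the first or the second high-dose library, the second or the third vehicle library (adjusted p = 0.094 to 0.134), and the MT-ND4L call without any 1 of the 6 libraries (adjusted p = 0.0525 to 0.109). Neither ginger had a member called by edgeR or DESeq2 against vehicle at the low dose, with 1 member in fresh and 2 in dried ginger at an unadjusted p under 0.05, where 6.48% and 3.6% of genes were called.

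In Scutellaria MT-RNR2 was higher at the high dose than at the low dose. Its high-dose libraries had 25750, 25790 and 25930 CPM of MT-RNR2, and its low-dose libraries 22110, 19240 and 22570. MT-RNR2 rose by 0.28 on the log2 scale (SE 0.0783, adjusted p = 0.0229, edgeR). It was the only member called by edgeR between these doses, where 14.4% of 16203 genes were higher and 14.7% lower. DESeq2 called 2 members higher and 0 lower. Without any 1 of the 3 high-dose libraries the adjusted p was 0.0554 to 0.0562. MT-RNR1 had 1872, 1842 and 1867 CPM at the high dose and 1600, 1429 and 1737 at the low dose, and was not called (log2 difference 0.23, adjusted p = 0.0747). Per 100 heavy-strand mRNA counts, rRNA had 41.6, 45.4 and 45.5 counts at the high dose, above all 3 vehicle libraries and all 6 at the other Scutellaria doses, which lay between 31.3 and 36.0.

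Against vehicle, high-dose Scutellaria had MT-CO1 lower and MT-ND4L higher. MT-CO1 had 15320, 14620 and 14010 CPM against 16950, 15730 and 16230, and fell by 0.16 (adjusted p = 0.00337, edgeR), where 19.7% of genes were lower. MT-ND4L had 1400, 1316 and 1353 CPM against 1157, 1185 and 1089, and rose by 0.24 (adjusted p = 0.00325), where 19.1% were higher. MT-CO3 had 9036, 8588 and 9033 CPM and MT-ND3, a small core subunit of complex I, had 1257, 1028 and 1165 CPM. Both were below all vehicle libraries and neither was called by edgeR (adjusted p = 0.0707 and 0.0531). The share of all genes without overlap was not counted in this comparison. DESeq2 called 1 member higher and 3 lower in this comparison. In the fit of all 60 libraries the MT-CO1 and MT-ND4L calls were lost (adjusted p = 0.0739 and 0.0824). Low-dose Scutellaria had MT-ND4L as its only member called, with 1521, 1434 and 1375 CPM and a log2 rise of 0.33 (adjusted p = 0.00424), where 2.41% of genes were higher. This call too was lost in the fit of all 60 libraries (adjusted p = 0.0621).

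The change from low to high dose was then compared between extracts, for all 15 pairs of the 6 replicated extracts in 1 edgeR fit of 60 libraries. This comparison was chosen after the results above were seen. Only rRNAs were called, 7 times in 5 pairs; of 195 mRNA results 0 were called by edgeR, 0 by DESeq2, and 1 had an unadjusted p under 0.05. The doses of Scutellaria differ from those of the others, and its values stand beside theirs as the study paired high with low.

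For MT-RNR1, the change in dried ginger was below that in Scutellaria by a log2 difference of -0.66 (SE 0.142, adjusted p = 0.00212, edgeR), where 3.13% of 17870 genes were lower. It was below that in Pinellia by -0.45 (adjusted p = 0.0183), where 10.6% were lower. Sayeok minus dried ginger was 0.70 (SE 0.142, adjusted p = 0.000458), where 7.21% were higher, and this value rests in part on the third high-dose Sayeok library, at 2500 CPM of MT-RNR1 against 1620 and 1609 in the others. Without it the difference was 0.46 (adjusted p = 0.00222). Bojungikgi minus dried ginger was 0.55 (adjusted p = 0.0142), where 8.18% were higher. Fresh ginger minus Scutellaria was -0.50 for MT-RNR1 (adjusted p = 0.0165) and -0.43 for MT-RNR2 (adjusted p = 0.00212), where 5.53% were lower. Dried ginger minus Scutellaria was -0.36 for MT-RNR2 (adjusted p = 0.0192).

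Of these 7 calls, 3 held under all alternatives: MT-RNR1 for dried ginger against Sayeok and against Scutellaria, and MT-RNR2 for fresh ginger against Scutellaria. The Pinellia call was lost without the second low-dose dried ginger library (adjusted p = 0.073) or the first low-dose Pinellia library (adjusted p = 0.0696). The Bojungikgi call was lost without its second high-dose (adjusted p = 0.0699) or the third low-dose library (adjusted p = 0.0872), or the second low-dose dried ginger library (adjusted p = 0.0511). The call for MT-RNR1 in fresh ginger against Scutellaria was lost without the second low-dose Scutellaria library (adjusted p = 0.0667). The MT-RNR2 call in dried ginger was lost without the second high-dose (adjusted p = 0.0541) or second low-dose dried ginger library (adjusted p = 0.0919), or the second low-dose Scutellaria library (adjusted p = 0.089).

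**Figure D5:**
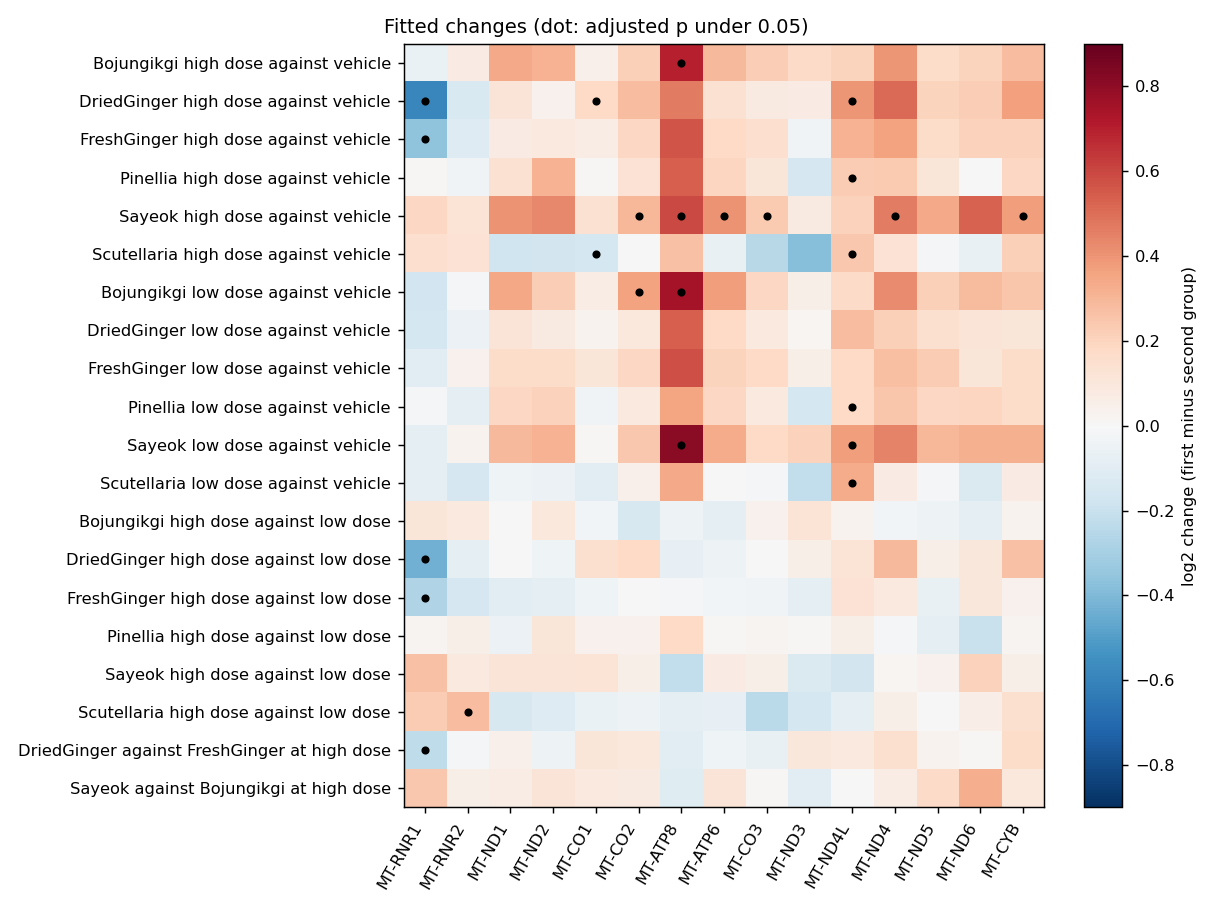
Fitted log2 changes of the 15 mitochondrial genes (columns, genome order) in the 20 comparisons (rows), first group minus second; a dot marks an adjusted p under 0.05 over all genes tested. MT-ATP8 is positive in all 12 comparisons with vehicle (0.26 to 0.82), and MT-RNR1 is lowest in high-dose dried ginger (-0.59).

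In the formulas every call was in an mRNA and was higher than vehicle. In high-dose Sayeok 6 members were called higher than vehicle and 0 lower, where 9.39% of 16723 genes were higher and 9.53% lower. All 15 log2 changes were positive, with a median of 0.34 against 0.00 over all genes. For complex IV, MT-CO2 had 6738, 7505 and 7197 CPM against 5714, 5593 and 6103, a rise of 0.30 (adjusted p = 0.0188, edgeR), and MT-CO3 had 12130, 12430 and 12600 against 10810, 10050 and 10700, a rise of 0.23 (adjusted p = 0.0402). For ATP synthase, MT-ATP6 had 6397, 6752 and 7230 CPM against 4965, 4901 and 5462, a rise of 0.41 (adjusted p = 0.0377). MT-ATP8 rose by 0.59 (adjusted p = 0.0154). For complex I, MT-ND4 had 10810, 13650 and 12360 CPM against 8635, 7950 and 10080, a rise of 0.46 (adjusted p = 0.026). For complex III, MT-CYB had 5168, 6032 and 5658 CPM against 4209, 3856 and 4913, a rise of 0.37 (adjusted p = 0.0464).

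None of the 6 overlapped the vehicle libraries, nor did 6 other members, where 33.2% of all genes tested did not overlap. Each call was lost when certain single libraries were left out. With 1 library fewer, 0 to 4 members were called. The highest adjusted p over the alternatives was 0.076 for MT-CO2, 0.151 for MT-CYB, 0.103 for MT-ND4, 0.117 for MT-ATP6, 0.16 for MT-CO3 and 0.063 for MT-ATP8. All 6 calls were lost without the second high-dose library, and 5 of 6, all but MT-ATP8, without the first vehicle library, the second vehicle library or the third high-dose library. MT-ND6 had 441.3, 717.8 and 472.5 CPM in this group and was not called (log2 difference 0.53, SE 0.197, adjusted p = 0.0878).

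In low-dose Sayeok MT-ATP8 had 703.2, 518.7 and 698.7 CPM against 355.8, 405.0 and 330.7 in vehicle and rose by 0.82 (SE 0.147, adjusted p = 0.00594, edgeR). MT-ND4L had 1570, 1230 and 1645 CPM against 1157, 1185 and 1089 and rose by 0.37 (adjusted p = 0.0308). These 2 members were called where 3.57% of genes were higher. MT-ATP6, which lies on the same bicistronic mRNA as MT-ATP8, was not called. The MT-ND4L call was lost without any 1 of the vehicle libraries or without the first or the third low-dose library (adjusted p = 0.0526 to 0.119). Between the high and low dose of Sayeok 0 members were called by edgeR and 0 by DESeq2, with 1 at an unadjusted p under 0.05, where 7.58% of genes were called.

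In Bojungikgi, with 2 libraries, MT-ATP8 was the only member called at the high dose, with 498.5 and 687.5 CPM and a rise of 0.70 (adjusted p = 0.0374, edgeR), where 1.39% of genes were higher. It was lost without the first vehicle library (adjusted p = 0.0728), the third vehicle library (adjusted p = 0.103) or the third high-dose library, where the log2 change was 0.45 (adjusted p = 0.268). Low-dose Bojungikgi had MT-ATP8 at 613.6 and 608.7 CPM, a rise of 0.75 (adjusted p = 0.0181), and MT-CO2 at 7424 and 7466 CPM, a rise of 0.36 (adjusted p = 0.0274), where 2.76% of genes were higher. Both calls were lost without either low-dose library (adjusted p = 0.11 to 0.184), the MT-ATP8 call also without the third vehicle library (adjusted p = 0.0656) and the MT-CO2 call without the first (adjusted p = 0.0545) or the second (adjusted p = 0.0773). High against low dose called 0 members by edgeR and by DESeq2, with 0 at an unadjusted p under 0.05, where 0.712% of genes were called. Sayeok and Bojungikgi did not differ by a call in any member at the high dose (0 by edgeR, 0 by DESeq2, 0 at an unadjusted p under 0.05), where 2.05% of genes were called. Their high minus low dose changes also gave 0 by each of these counts, where 0.275% of genes were called.

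Pinellia changed little among the members. MT-ND4L was called higher at the high dose, with 1315, 1316 and 1397 CPM and a rise of 0.23 (adjusted p = 0.00996, edgeR), where 4.06% of 16236 genes were higher, and lost without the third vehicle library (adjusted p = 0.0705) and in the fit of all 60 libraries (adjusted p = 0.231). The low-dose libraries had 1236, 1245 and 1410 CPM and a rise of 0.18 (adjusted p = 0.0474), where 2.19% were higher. DESeq2 called 0 members at that dose, and the call was lost without the first or the third vehicle library, or without the second or the third low-dose library (adjusted p = 0.0521 to 0.206). Without the third low-dose library the rise was 0.12. Between the doses 0 members were called by edgeR and 0 by DESeq2, with 0 at an unadjusted p under 0.05, where 0.117% of genes were called.

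MT-ATP8 and MT-ND4L, the shortest mRNAs, were above vehicle in nearly all extract libraries. MT-ATP8, 207 bases long, was above the highest vehicle library in 47 of 51 extract libraries of replicated groups, and below the lowest in 0. MT-ND4L, 297 bases long, was above it in 49 of 51 and below it in 1. MT-ND3, the next in length at 346 bases, was above it in 9 and below the lowest in 14. MT-ND4 and MT-CYB were above it in 35 and 32 libraries and below in 0. These counts rest on the same 3 vehicle libraries and are not independent of each other. The same count was not made over all genes, so they do not show whether this is particular to the members. MT-CO1, by contrast, was above in 21 and below in 12, and MT-RNR1 above in 7 and below in 23. The level of RNAs without a poly(A) tail was also highest in vehicle libraries, and its part in these counts was not tested.

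Replicates differed more in the members than in nuclear genes at 100 CPM or more. Within the 19 replicated groups the SD of log2 CPM was 0.084 for MT-CO1, 0.085 for MT-RNR2, 0.122 for MT-RNR1, 0.241 for MT-ND6 and 0.258 for MT-ATP8. The median over 2020 such nuclear genes was 0.045 and their 90th percentile 0.071, which all 15 members exceeded. The deviations from the group means went together among the heavy-strand mRNAs, with a median Pearson correlation of 0.80 over 66 pairs of genes (range 0.20 to 0.93, 54 libraries). MT-ND6 with those mRNAs had a median of 0.64, MT-RNR2 0.65 and MT-RNR1 0.30. These correlations share libraries, depth and scaling and are given as a description.

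Nuclear genes of the respiratory complexes were called lower, and none higher, in each of the 12 comparisons with the shared vehicle libraries, whether or not members were called. Of 47 such genes, 32 were lower in high-dose Sayeok, where 9.53% of all genes were lower and 6 members higher. In high-dose Scutellaria 31 were lower, where 19.7% of all genes were and 1 member was higher and 1 lower. In high-dose dried ginger 30 were lower, where 19.0% of all genes were. The other 9 comparisons had between 8 (high-dose Bojungikgi) and 26 (low-dose Sayeok) lower. Among them, high-dose fresh ginger had 16 lower, where 7.16% of all genes were. Low-dose fresh and dried ginger had 16 and 10 lower, where 6.48% and 3.6% of all genes were called in either direction. For the rest, the share of all genes lower is not given here, and their counts are not set against it. The median log2 change in high-dose Sayeok was -0.17 against 0.00 over all genes. COX7A2, a complex IV subunit, fell by 0.33 (76.4 against 95.9 CPM, adjusted p = 2.8e-08, edgeR). UQCRC1, a core subunit of complex III, fell by 0.26 (105 against 126 CPM, adjusted p = 1.87e-07). SDHD, which anchors complex II, fell by 0.21 (adjusted p = 4.18e-05). Complex II has no mitochondrially encoded subunit.

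The counts for the genes that act on mitochondrial DNA and RNA in high-dose Sayeok against vehicle stand beside 9.39% of all genes higher and 9.53% lower. Of 9 transcription genes 0 were called in either direction by edgeR. POLRMT had 59.0 against 61.8 CPM, TFAM 118 against 115 and TFB2M 35.5 against 38.4. Of 20 RNA processing and decay genes 1 rose and 5 fell. LRPPRC rose by 0.09 (498 against 468 CPM, adjusted p = 0.0305), and HSD17B10, an RNase P subunit, fell by 0.185 (adjusted p = 0.013). Of 11 replication genes 2 rose and 1 fell. The single-stranded DNA binding protein SSBP1 fell by 0.16 (adjusted p = 0.00212), and LIG3, the mitochondrial DNA ligase, rose by 0.11 (adjusted p = 0.0272). Among 8 biogenesis regulators PPARGC1B alone was called, with a rise of 0.17 (adjusted p = 0.0413), and PPRC1 had 125 against 117 CPM.

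From low to high dose of dried ginger, 16.8% of all genes were higher and 16.0% lower, and 1 of 9 transcription genes was called lower. TFAM fell by 0.18 (105 against 119 CPM, adjusted p = 0.000984, edgeR), while POLRMT had 51.2 against 54.2 CPM and TFB2M 33.2 against 34.9. Of the processing and decay genes 7 of 20 fell and 1 rose. ELAC2, the RNase Z that cuts the 3′ side of tRNAs, fell by 0.28 (adjusted p = 3.43e-06), REXO2, an oligoribonuclease, by 0.20 (adjusted p = 0.00251) and PDE12, which removes poly(A) tails, by 0.19 (adjusted p = 0.0023). LRPPRC rose by 0.11 (adjusted p = 0.0224). Among 11 replication genes 1 rose and 1 fell. TOP1MT, the mitochondrial topoisomerase, was the 1 that rose, by 0.33 (adjusted p = 0.000154). Among 8 biogenesis regulators 1 rose and 3 fell, and of these NRF1 fell by 0.34 (adjusted p = 9.08e-05). Of the 47 nuclear respiratory chain genes 10 fell and 0 rose, with a median of -0.07 against 0.00 over all genes.

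From low to high dose of Scutellaria, 14.4% of all genes were higher and 14.7% lower. TFAM fell by 0.165 (101 against 114 CPM, adjusted p = 0.00349, edgeR), ELAC2 by 0.31 (adjusted p = 1.36e-07), PDE12 by 0.23 (adjusted p = 0.0005) and NRF1 by 0.18 (adjusted p = 0.0444). LRPPRC rose by 0.11 (adjusted p = 0.0127). POLRMT had 51.5 against 55.9 CPM, TFB2M 34.7 against 36.0 and PPRC1 113 against 116. Of the list counts, 1 of 9 transcription genes rose and 1 fell, and 2 of 20 processing genes rose and 9 fell. Among 11 replication genes 2 rose and 2 fell, and among 8 biogenesis regulators 0 rose and 4 fell. Of 47 nuclear respiratory chain genes 3 rose and 10 fell.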

How the data were processed

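The authors deposited expected counts per gene as RSEM writes them. The submitters' processing notes name FastQC 0.11.9, Trim Galore 0.6.5, STAR 2.7.3a, RSEM 1.3.3 and GRCh38; neither the annotation release nor the strand setting is named there. The table has 269 value columns; the 209 of other samples were not used. Expected counts were rounded and tested with edgeR 4.0.16 (R 4.3.3, filterByExpr minimum count 10, TMM scaling, robust quasi-likelihood fit, 1 mean per group) in 4 fits: formulas with vehicle, gingers with vehicle, Scutellaria with vehicle and Pinellia with vehicle. DESeq2 1.42.0 was an alternative. Others were other scalings, no filter, 1 fit of all 60 libraries, a replicate block and leaving out each library. The scripts were tested on simulated data.

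Gene names, lengths, coordinates and sequences came from GENCODE release 29, which matched 57055 of 60675 gene IDs. The members MT-ND1, MT-ND2, MT-CO1, MT-CO2, MT-ATP6 and MT-CO3 had mostly non-whole values and share reads with nuclear copies or neighbours, so their levels are uncertain. The 401 nuclear copies in the table held 0.383% to 1.32% of the members' counts, but these were concentrated in a few copies. MTATP6P1 had a mean of 19610 counts beside 140103 for MT-ATP6, and MTND2P28 had 4236 beside 118294 for MT-ND2. The share is therefore larger for these members than the pooled range shows.

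The members and gene lists were chosen with earlier results of these data known. The rule named all 13 mRNAs and both rRNAs, POLRMT, TFAM, TFB2M, LRPPRC, PPARGC1A and PPRC1, and up to 3 genes per list with the lowest p in dried ginger (high against low dose) and Sayeok (high dose against vehicle). TRMT10C and PRORP were named after their values were seen. PPARGC1A did not pass the filter. Same-numbered replicates were checked for pairing: of 56 correlations of their deviations from group means, 3 were over 0.1, so the numbers were not taken as pairs. No 2 replicates agreed within sampling noise.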

Additional observations from a re-analysis of the deposited data

Results flagged for a closer look

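Coptis had 1 library at each dose and entered no test, and its values were above the vehicle libraries in 4 measures. Its mitochondrial share was 9.922% at the high, 15.92% at the medium and 14.98% at the low dose, against a vehicle maximum of 9.38%. MT-ND6 per 1000 heavy-strand mRNA counts was 9.591, 17.29 and 21.49 in that order, against 6.35. rRNA per 100 heavy-strand mRNA counts was 177.4, 260.7 and 145.0, against 39.2, and MT-RNR1 per 100 counts of MT-RNR2 was 53.2, 42.08 and 36.27, against 7.3.

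Zizyphus, also with 1 library at each dose, was above the vehicle maximum by less. Its mitochondrial share was 9.66% at the medium and 10.44% at the low dose. Its MT-RNR1 per 100 counts of MT-RNR2 was 7.729 at the high and 7.448 at the medium dose.

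In the high minus low dose change, 7 rRNA results differed between extracts in the interaction test of edgeR. MT-RNR1 gave 0.701 for Sayeok minus dried ginger, 0.546 for Bojungikgi minus dried ginger, -0.499 for fresh ginger minus Scutellaria, -0.658 for dried ginger minus Scutellaria and -0.454 for dried ginger minus Pinellia. MT-RNR2 gave -0.432 for fresh ginger minus Scutellaria and -0.359 for dried ginger minus Scutellaria. No group held 4 or more libraries, so single libraries were not tested as outliers.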

How the results depend on the processing

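Of 4365 member values under alternatives, 4226 kept their direction and side of the threshold, 88 lost a call, 51 gained one and none called changed sign. The number of members called moved as follows. The share of all genes called under each alternative is not given here, so these numbers are not set against it. With 1 fit of all 60 libraries it was 3 for high-dose Sayeok, 2 for fresh and 5 for dried ginger at the high dose, each against vehicle, and 0 for both Bojungikgi doses, both Scutellaria doses and both Pinellia doses against vehicle, fresh ginger high against low, and dried against fresh ginger. With no filter it was 0 for high-dose Bojungikgi against vehicle and Scutellaria high against low; 1 for Sayeok high against low, low-dose dried ginger against vehicle and the dose change between gingers; and 2 for both gingers high against low and low-dose Pinellia against vehicle. With DESeq2 it was 4 for low-dose Sayeok and for high-dose Scutellaria, 5 for high-dose dried ginger and 0 for low-dose Pinellia, each against vehicle, and 2 for Scutellaria high against low. With library totals in place of scaling it was 5 for high-dose dried ginger against vehicle, and 2 for dried ginger and for Scutellaria high against low. With the replicate block it was 0 for high-dose Bojungikgi and low-dose Pinellia, 1 for low-dose Sayeok, Bojungikgi and fresh ginger, 2 for high-dose fresh ginger and 4 for high-dose Scutellaria, each against vehicle, and 2 for dried ginger and 3 for Scutellaria high against low. The replicate numbers share only a number (correlations -0.062 to 0.154).

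Leaving out 1 library gave 0 to 4 members for high-dose Sayeok, 1 to 5 for low-dose Sayeok, 0 to 1 for both Bojungikgi doses, 1 to 2 for high-dose dried ginger, 0 to 1 for low-dose dried ginger and 0 to 1 for both Pinellia doses against vehicle. It gave 0 to 1 for Sayeok and fresh ginger high against low and for dried against fresh ginger, and 0 to 2 for Scutellaria high against low. Among the differences in dose change it gave 0.465 to 0.61 for MT-RNR1 in Bojungikgi minus dried ginger, -0.568 to -0.426 in fresh ginger minus Scutellaria and -0.503 to -0.374 in dried ginger minus Pinellia, and -0.416 to -0.292 for MT-RNR2 in dried ginger minus Scutellaria.

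Ratios to the heavy-strand mRNAs, as log2 differences from vehicle, moved beyond the replicate SD with the mean of log2 values in place of the sum: MT-ND6 to -0.095 in low-dose fresh ginger, and rRNA to -0.217, -0.273 and -0.314 in high, medium and low-dose Bojungikgi, -0.326 in high-dose fresh ginger and -0.184 in low-dose Scutellaria. The cause of these changes was not tested. Coptis has no replicate, and the tRNAs had too few counts to be tested. The fit with no filter was not run for the differences in dose change between all pairs of extracts.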
